A study of Mus musculus with 5 samples.

Results

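Amino acid transporters carry amino acids across the plasma membrane and the lysosomal membrane. The genes described here are the 42 protein-coding mouse genes of the Slc1a, Slc3a, Slc7a, Slc36a, Slc38a and Slc43a families, taken by symbol from the 52029 genes of the 4-library count table. All 42 were also present in the separate table of the third co-culture library. They were measured in hepatobiliary organoids, three-dimensional cultures of wild-type mouse primary liver stem/progenitor cells. Organoids co-cultured with liver endothelial cells (LiECs) at passage 8 gave 3 samples, and organoids alone at passage 1 gave 2 samples, all collected at day 10. All samples grew in the same type of medium, with GlutaMAX, knock-out serum replacement, nicotinamide, heparin, endothelial cell growth supplement, Y-27632 and EGF. Passage and co-culture changed together between the groups, so the effects of the 2 cannot be told apart. The labels do not say whether samples of a group came from separate animals or cultures, and the tests below therefore weigh differences only against library-to-library variation, which may be technical.

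Total counts were 33881617 and 35878241 in the co-culture libraries M9 and M10, 58853737 in the third co-culture library, and 26466739 and 29195328 in the alone libraries M11 and M12. A floor of 3 counts corresponded to 0.051 to 0.113 CPM, the unit for counts made comparable between libraries of different totals. M9 and M10 differed from each other more than M11 and M12 did, the chi-square of counts over genes divided by its degrees of freedom being 93.1 for the co-culture pair and 33.3 for the alone pair. The 10 biliary markers summed to 10600, 9470 and 6120 CPM in the co-culture libraries M9, M10 and the third, and 6830 and 8590 CPM in M11 and M12. Krt7, Krt19 and Prom1, the 3 called genes of the list, were higher in M9 and M10, with log2 fold changes of 1.11, 1.15 and 1.19. The third library was below both alone libraries for Krt7 and Krt19 and above both for Prom1. Spp1 was at 1168, 683 and 2085 CPM in co-culture and 2124 and 2882 CPM alone, and was not called. The 22 endothelial markers summed to 57.2, 51.3 and 18.9 CPM in M9, M10 and the third library, against 32.9 and 24.6 CPM in M11 and M12. Most of the sum in M9 and M10 was Ptprb, the 1 called gene of the list, at 46.1, 42.6 and 10.4 CPM in M9, M10 and the third library and 9.86 and 9.68 CPM in M11 and M12. Of the other endothelial markers, Clec4g and Clec14a were at 0 in all 5 libraries, and Pecam1 was at 0.0629, 0.0615 and 0.173 CPM in co-culture and 0.039 and 0.0725 CPM alone. The 12 mesenchymal markers summed to 2.01, 3.09 and 8.21 CPM in co-culture, against 28.1 and 83.9 CPM alone. Col3a1, Rgs5 and Col6a3, the 3 called genes of the list, were lower in M9 and M10, with log2 fold changes of -8.63, -3.50 and -4.45. Acta2 was at 0 in M9 and M10, 0.173 CPM in the third library and 0.351 and 3.12 CPM alone. Lum did not separate the groups, at 0 in all 3 co-culture libraries and in M12 and at 0.234 CPM in M11. The 9 macrophage markers summed to 313, 276 and 430 CPM in co-culture and 682 and 586 CPM alone, most of it Cd14, at 294.6, 241.1 and 349.9 CPM in co-culture and 658.8 and 582.4 CPM alone. Of the other macrophage markers, Csf1r was at 32.8, 56.3 and 85.7 CPM in co-culture and 31.6 and 32.1 CPM alone, and Adgre1 and Clec4f were at 0 in all 5 libraries. The 12 hepatocyte markers summed to 507, 423 and 626 CPM in co-culture and 372 and 431 CPM alone, most of it Hnf4a, at 442.2, 326.2 and 327.7 CPM in co-culture and 307.9 and 314.1 CPM alone. Alb, the 1 called gene of the hepatocyte list, was at 0.157, 0.277 and 66.5 CPM in co-culture and 17.2 and 53.4 CPM alone. It was lower in M9 and M10 and higher in the third library. Of the 6 tested hepatocyte markers, 4 had positive log2 fold changes that were not called. These were Apoa1, Ttr, Ass1 and Hnf4a, at 2.74, 1.01, 1.11 and 0.30, and Fgb was at -9.66, also not called. The third library was above both alone libraries for Apoa1, Ttr and Hnf4a and below both for Ass1. The part of these shifts in the transporter values was not tested.

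Slc3a2 and Slc3a1 encode glycoprotein heavy chains that bring Slc7 light chains to the cell surface, where the pair exchanges amino acids across the membrane. The Slc1 family takes up glutamate or exchanges neutral amino acids such as glutamine, the Slc38 family takes up neutral amino acids together with sodium, and the Slc36 family works with protons. Amino acids that enter feed protein, glutathione and nucleotide synthesis, and their supply is read by the kinase complex mTORC1. When amino acids run short, the transcription factor ATF4 raises many transporter genes through C/EBP-ATF response elements in DNA.

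Promoters were read for members present in the RefSeq promoter table (build GRCm38.p6), which held 42 promoters of 31 of the 42 members. Slc7a2, Slc7a3, Slc7a4, Slc7a5, Slc7a12, Slc7a13, Slc1a5, Slc36a2, Slc38a1, Slc38a3 and Slc43a3 had no promoter there and were not searched. Each spans 250 bases before to 50 bases after a start site. A C/EBP-ATF response element, spelled TGATGNAAN and searched on both strands, occurred in 4 of the 42 member promoters (9.52%), against 1299 of all 32851 promoters (3.95%). These 4 belonged to 3 members, because 2 overlapping windows of Slc7a7 hold the same match. The sequences below run 5′ to 3′ on the minus strand, with each match in capitals, and are shown because the values of these genes recur in the results. The window of Slc7a11 lies at chr3:50443564-50443863, that of Slc1a4 at chr11:20332664-20332963, and that of Slc7a7 at chr14:54417895-54418194.
Slc7a11: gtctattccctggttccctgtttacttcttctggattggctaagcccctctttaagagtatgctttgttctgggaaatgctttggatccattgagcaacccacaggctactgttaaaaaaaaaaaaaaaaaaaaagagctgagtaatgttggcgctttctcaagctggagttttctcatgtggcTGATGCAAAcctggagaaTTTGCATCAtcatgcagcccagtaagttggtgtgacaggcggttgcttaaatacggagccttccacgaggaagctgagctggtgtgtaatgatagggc
Slc1a4: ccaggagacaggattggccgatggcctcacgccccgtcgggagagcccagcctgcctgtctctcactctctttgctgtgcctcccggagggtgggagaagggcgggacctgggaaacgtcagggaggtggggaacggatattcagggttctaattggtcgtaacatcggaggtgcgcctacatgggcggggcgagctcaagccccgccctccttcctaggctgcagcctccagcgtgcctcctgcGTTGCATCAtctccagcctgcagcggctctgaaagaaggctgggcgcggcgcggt
Slc7a7: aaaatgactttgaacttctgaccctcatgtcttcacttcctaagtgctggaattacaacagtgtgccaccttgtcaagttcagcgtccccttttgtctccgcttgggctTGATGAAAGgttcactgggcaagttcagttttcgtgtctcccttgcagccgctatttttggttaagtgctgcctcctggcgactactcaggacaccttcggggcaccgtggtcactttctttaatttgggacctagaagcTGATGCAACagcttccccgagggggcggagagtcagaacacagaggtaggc
In Slc7a11, the cystine/glutamate exchanger gene, the matches begin at positions -66 and -48 relative to the start site and face each other on opposite strands. Slc1a4 held a match at -5 and this window of Slc7a7 held matches at -141 and -1. A second motif, the antioxidant response element spelled TGACNNNGC, occurred in 6 of the 42 member promoters and in 4071 of all 32851 promoters (12.4%). The members were Slc43a1, Slc7a1, Slc36a1, Slc38a2 and Slc7a6, of which Slc7a6 has 2 overlapping windows that hold the same match. This second motif was not found in the Slc7a11 window. A match to letters describes the sequence and does not show binding.

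Levels between genes were compared per length, as CPM per kilobase of merged annotated exons. Over M9 to M12, 10 of the 42 members averaged at least 10 CPM per kilobase and 24 averaged under 1. The highest mean level per length belonged to Slc38a2, the sodium-coupled transporter SNAT2, at 51.8, 55.1 and 50.3 CPM per kilobase in the co-culture libraries M9, M10 and the third, and 44.4 and 36.5 in the alone libraries M11 and M12. Slc3a2, the 4F2 heavy chain also called CD98, was at 39.0, 58.2 and 45.2 CPM per kilobase in co-culture and 36.6 and 35.6 alone. Slc38a10 was at 40.7, 44.3 and 42.2 CPM per kilobase in co-culture and 35.1 and 38.4 alone. The ranges of these 3 genes overlapped, so their order is not resolved. Slc1a5, the glutamine exchanger ASCT2, came next with a mean of 23.4 CPM per kilobase, followed by the light chain Slc7a5 with 21.1, the arginine transporter Slc7a1 with 19.5, Slc7a6 with 17.7 and Slc43a2 with 17.2. The first 4 places were filled by the same genes in the third co-culture library. Slc1a5 was in place 4 in M9 and M10 too, but in place 8 in both alone libraries, at 12.9 and 16.9 CPM per kilobase. Slc43a2 was in place 4 in both alone libraries, so the order below the top 3 differed between the groups. Slc3a1 stood apart in the third library, in place 10 of 42, against place 18 by the mean of M9 to M12. Slc7a2 was in places 28, 27 and 26 in M9, M10 and the third library, and in places 18 and 17 in M11 and M12.

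**Figure D1:**
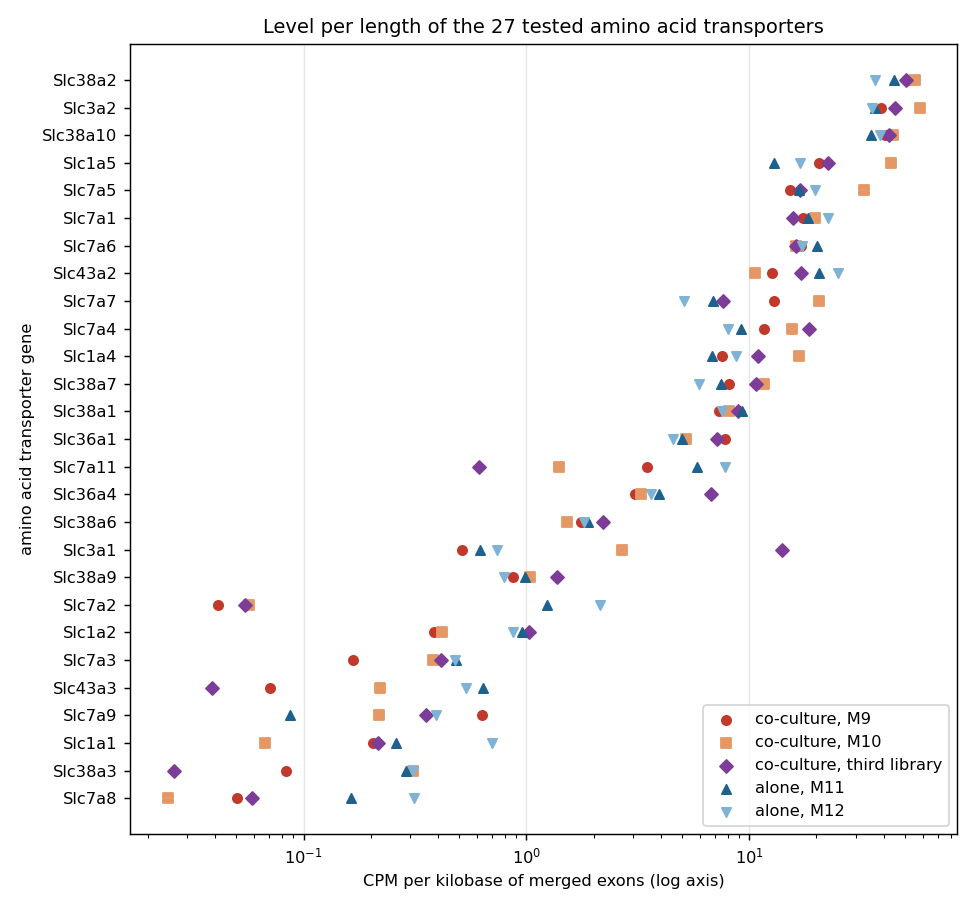
CPM per kilobase of merged exons (log axis) of the 27 tested amino acid transporter genes in each library, co-culture M9, M10 and the third and organoids alone M11 and M12, ordered by the mean of M9 to M12. Slc38a2, Slc3a2 and Slc38a10 share the top, and Slc7a2 shows the widest gap between groups, with 0.0413, 0.0572 and 0.0548 in co-culture and 1.24 and 2.13 alone.

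The first comparison set co-culture libraries M9 and M10 against M11 and M12 on counts with edgeR's quasi-likelihood test, adjusted over 15899 genes by Benjamini-Hochberg, with a call at an adjusted p under 0.05. The low-count filter passed 27 of the 42 members and left out 15. Slc7a2 was called lower in co-culture, no member was called higher, and 26 tested members were not called. That is 3.7% of tested members, where 2.24% of all tested genes were called, 0.994% of them higher and 1.25% of them lower. DESeq2 called 6 members, 2 higher and 4 lower, among 1314 of 15899 genes. With edgeR, 14 members were called without M9 among 2619 of 16722 genes, 6 without M10 among 1114 of 16680 genes, and 0 without M12, where 0 of 16957 genes were called. At an unadjusted p under 0.05, 9 members stood out, 3 higher (Slc7a7, Slc7a4, Slc1a5) and 6 lower (Slc7a2, Slc43a2, Slc1a2, Slc7a8, Slc7a11, Slc43a3). This is 33.3% of tested members, against 17.5% of all tested genes, 8.42% higher and 9.06% lower. The median log2 fold change of the 27 tested members was -0.14, against 6e-04 over all tested genes. A positive log2 fold change occurred in 13 members and a negative one in 14, where 50.1% of all genes were positive. Both co-culture libraries lay above both alone libraries for 8 members and below both for 11, where the shares of all genes were 24.3% above and 25.1% below.

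The third co-culture library was counted with another annotation and has no replicate in its table, so its differences from M11 and M12 have no test. It lay above both alone libraries for 14 members and below both for 10, against 42.9% above and 46% below among the 14288 genes joined. A difference of at least 2-fold was higher for Slc3a1 and Slc7a4 and lower for Slc7a2, Slc7a11, Slc43a3, Slc38a3 and Slc7a8, where 13.2% of joined genes were that much higher and 17.6% that much lower. All 3 co-culture libraries lay above both alone libraries for 8 members and below both for 8, where the shares of joined genes were 15.2% above and 17% below. The 2 comparisons share the alone libraries M11 and M12. Per-library CPM below are scaled over all 5 libraries, and members are compared with each other only by the levels per length given above.

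**Figure D2:**
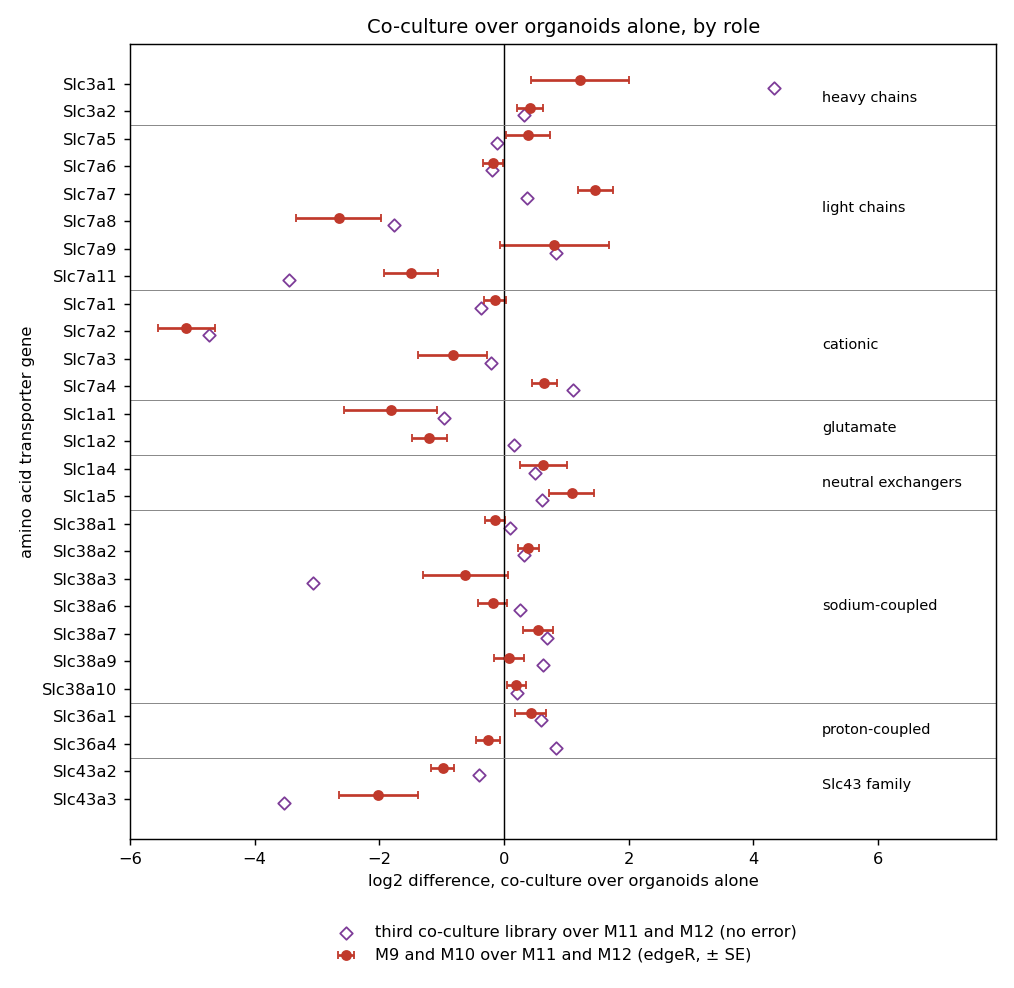
Log2 difference of co-culture over organoids alone for the 27 tested members, grouped by role, with filled points for M9 and M10 over M11 and M12 (edgeR, bars ± SE) and open diamonds for the third co-culture library (no error). Slc7a2 lies farthest left on both measures, at -5.09 and -4.74, and Slc3a1 has its diamond at 4.34 and its point at 1.22.

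Among the cationic amino acid transporters, which carry arginine, lysine and ornithine, Slc7a2 was the member with a called change. Slc7a2 encodes CAT2, a liver-expressed arginine transporter, and lies at chr8:40862396-40922308 on the plus strand (GRCm38). Its level was 0.377, 0.523 and 0.501 CPM in the co-culture libraries M9, M10 and the third, against 11.3 and 19.5 CPM in the alone libraries M11 and M12. The groups were far apart, with 12, 17 and 29 counts in co-culture and 290 and 537 counts alone. Slc7a2 fell by 5.09 ± 0.46 on the log2 scale (SE), 34.2-fold lower in co-culture, with an adjusted p of 0.0148 by edgeR. The call was lost when M12 was left out, at a log2 fold change of -4.65. That fit had M11 as its only alone library, so its spread came from M9 and M10, and the loss was not particular to Slc7a2. The call was also lost when all 5 libraries were fitted, at -5.03 and an edgeR adjusted p of 0.0823. The third co-culture library differed from the alone libraries by -4.74. An exon of Slc7a2 overlaps the long noncoding RNA gene Gm26584 on the other strand, and whether the counting used strand is not given in the sources used here. The mesenchymal marker sum was also lower in co-culture, with 3 of 7 tested genes called lower. Of 4 tested macrophage markers, Cd14 and Lyz2 were called lower, and Cd68 and Csf1r had positive log2 fold changes of 0.79 and 0.47 that did not pass. The part of these markers in the Slc7a2 value was not tested. In these bulk samples, fewer cells of a type and less RNA per cell cannot be told apart.

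The other 3 tested cationic members were not called, with 2 negative log2 fold changes and 1 positive. Slc7a1, the widely expressed arginine transporter CAT1, was at 199.6, 228 and 181 CPM in co-culture and 210 and 259.6 CPM alone, with groups that overlap and a log2 fold change of -0.15 ± 0.17 (edgeR adjusted p = 0.733). Slc7a4, whose transport activity has not been established, was at 48.4, 64.5 and 76.6 CPM in co-culture and 38.3 and 33.3 CPM alone. All 3 co-culture libraries lay above both alone libraries, but the log2 fold change of 0.65 ± 0.20 did not pass (edgeR adjusted p = 0.188), and the third library differed by 1.10. Slc7a3, the arginine transporter CAT3, was low in every library and lower in all 3 co-culture libraries than in both alone libraries, at 0.629, 1.44 and 1.57 CPM in co-culture and 1.83 and 1.81 CPM alone (log2 fold change -0.82 ± 0.55, edgeR adjusted p = 0.519).

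**Figure D3:**
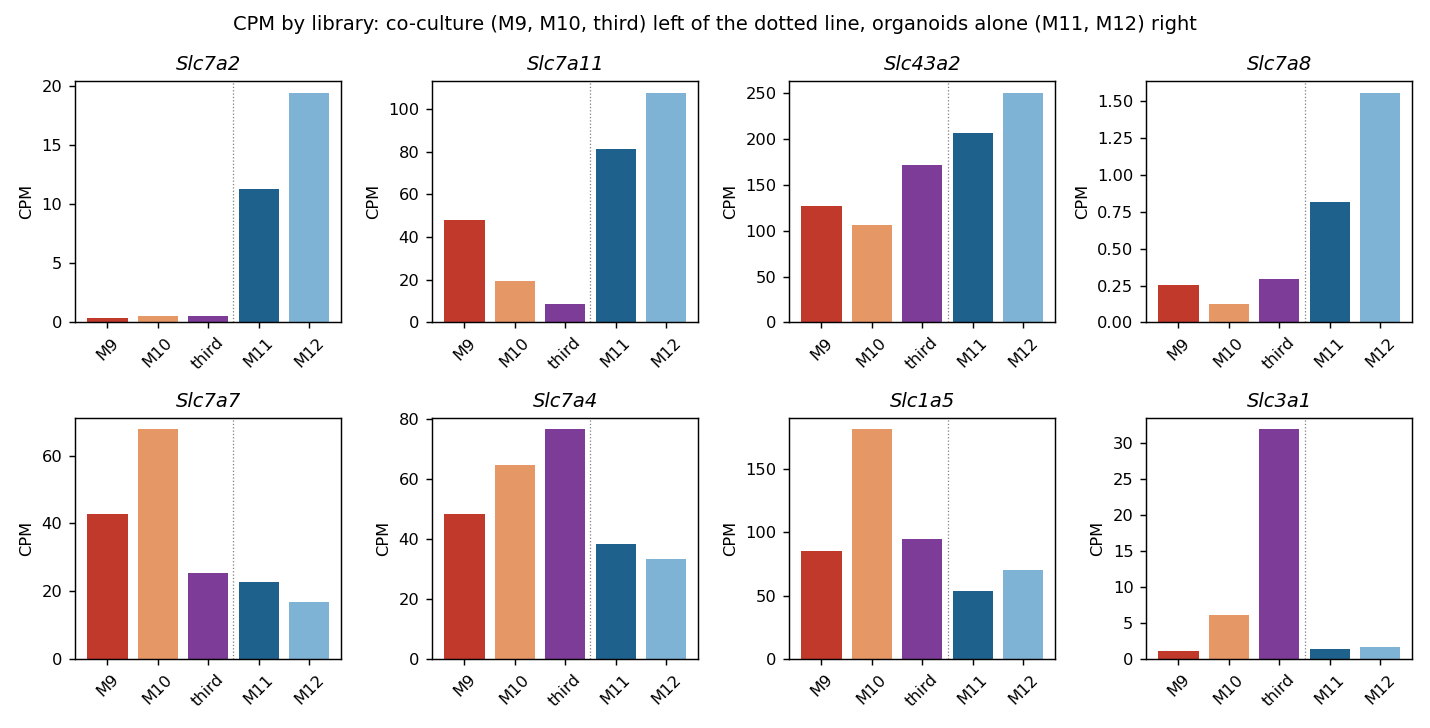
CPM of 8 members in each library, co-culture M9, M10 and the third left of the dotted line and organoids alone M11 and M12 right of it, each panel with its own axis from 0. Slc7a2, Slc7a11, Slc43a2 and Slc7a8 have every co-culture bar below both alone bars, and Slc7a7, Slc7a4 and Slc1a5 have every co-culture bar above them.

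Both heavy chains had positive log2 fold changes that did not pass. Slc3a2, the partner of Slc7a5, Slc7a6, Slc7a7, Slc7a8 and Slc7a11, was at 137.5, 205.3 and 159.6 CPM in co-culture and 129 and 125.5 CPM alone, a log2 fold change of 0.42 ± 0.21 (edgeR adjusted p = 0.397). Slc3a1, known as rBAT, pairs with the light chain of Slc7a9 to take up cystine and cationic amino acids in kidney and intestine. It was at 1.16, 6.09 and 32.0 CPM in co-culture and 1.40 and 1.67 CPM alone. The co-culture libraries spanned a wider range than the distance between the groups, with M9 below both alone libraries and the third library far above them. The log2 fold change was 1.22 ± 0.78 (edgeR adjusted p = 0.504), it turned to -0.40 without M10, and the third library differed by 4.34. Slc3a1 shares exon sequence with Prepl on the other strand, which was at 70.5, 85.2 and 136.5 CPM in co-culture and 68.7 and 61.4 CPM alone.

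None of the 6 tested Slc7 light chains was called, with 3 positive and 3 negative log2 fold changes. Slc7a7, the y+LAT1 light chain that exports cationic amino acids in exchange for neutral ones, was at 42.9, 67.8 and 25.3 CPM in co-culture and 22.8 and 16.9 CPM alone. Every co-culture library was higher than both alone libraries, with the third library closest to them. Its log2 fold change was 1.47 ± 0.28 (edgeR adjusted p = 0.0685) and the third library differed by 0.36. Slc7a7, at chr14:54369442-54417780 on the minus strand, overlaps Oxa1l on the other strand, which was at 47.6, 51.1 and 55.5 CPM in co-culture and 51.7 and 50.4 CPM alone. Slc7a6, the y+LAT2 light chain, lay just below both alone libraries in all 3 co-culture libraries, at 78.1, 74.0 and 74.2 CPM in co-culture and 91.9 and 78.9 CPM alone (log2 fold change -0.18 ± 0.16, edgeR adjusted p = 0.638).

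Slc7a11, the xCT light chain that imports cystine in exchange for glutamate, was at 48.2, 19.5 and 8.52 CPM in co-culture and 81.5 and 107.8 CPM alone. The groups did not overlap, and the co-culture libraries differed from each other by more than the alone libraries did. The log2 fold change of -1.49 ± 0.43 did not pass (edgeR adjusted p = 0.162), and the third library differed by -3.45. Slc7a5, the LAT1 light chain for large neutral amino acids such as leucine, was at 56.7, 121.5 and 62.5 CPM in co-culture and 62.2 and 72.9 CPM alone. Its co-culture range spanned the alone range, with M10 the highest library (log2 fold change 0.38 ± 0.35, edgeR adjusted p = 0.649, and -0.25 without M10). Slc7a8, the LAT2 light chain, was low in every library, at 0.252, 0.123 and 0.294 CPM in co-culture and 0.818 and 1.56 CPM alone, from at most 43 counts in any library (log2 fold change -2.65 ± 0.69, edgeR adjusted p = 0.128). Slc7a9, the cystine light chain that pairs with Slc3a1, overlapped between groups at 1.70, 0.584 and 0.950 CPM in co-culture and 0.234 and 1.05 CPM alone.

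The neutral exchangers Slc1a5 and Slc1a4 and the glutamate transporters of the same family did not pass the test. Slc1a5 was at 85.5, 181 and 94.3 CPM in co-culture and 54.0 and 70.5 CPM alone. All 3 co-culture libraries lay above both alone libraries, with M10 far above M9 (log2 fold change 1.08 ± 0.36, edgeR adjusted p = 0.206, the third library at 0.61). Slc1a4, the alanine, serine and cysteine exchanger ASCT1, was at 29.7, 65.4 and 42.9 CPM in co-culture and 26.8 and 34.1 CPM alone. Its groups overlapped through M9 (log2 fold change 0.63 ± 0.38, edgeR adjusted p = 0.477), and without M10 the value turned to -0.03. Slc1a2, the glutamate transporter GLT-1, best known from astrocytes and also expressed in liver, was at 5.06, 5.50 and 13.5 CPM in co-culture and 12.6 and 11.5 CPM alone. M9 and M10 lay below both alone libraries (log2 fold change -1.20 ± 0.27, edgeR adjusted p = 0.0986), but the third library lay above both, at a difference of 0.17. Slc1a1, the glutamate and cysteine transporter EAAC1, was at 1.70, 0.553 and 1.78 CPM in co-culture and 2.14 and 5.77 CPM alone.

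The sodium-coupled Slc38 members with high levels varied little. Slc38a2 was at 458, 487 and 444 CPM in co-culture and 392.4 and 322 CPM alone, above both alone libraries in all 3 (log2 fold change 0.39 ± 0.16, edgeR adjusted p = 0.292, the third library at 0.32). Slc38a10 was at 261.5, 284.5 and 271 CPM in co-culture and 226 and 246 CPM alone (0.20 ± 0.15, edgeR adjusted p = 0.563). Slc38a1, the glutamine transporter SNAT1, overlapped between groups at 125, 139 and 154 CPM in co-culture and 160 and 130 CPM alone (-0.14 ± 0.17, edgeR adjusted p = 0.733). Slc38a7, which exports glutamine from lysosomes, was above both alone libraries in all 3, at 33.7, 48.3 and 44.5 CPM in co-culture and 30.9 and 24.6 CPM alone (0.55 ± 0.24, edgeR adjusted p = 0.322). Slc38a6 was at 13.7, 11.8 and 17.2 CPM in co-culture and 14.7 and 14.1 CPM alone. M9 and M10 lay below both alone libraries and the third library above both. Slc38a9, the lysosomal arginine sensor of mTORC1, was at 14.5, 17.4 and 23.0 CPM in co-culture and 16.5 and 13.3 CPM alone. Slc38a3, the glutamine transporter SNAT3 of hepatocytes, was sparse, at 0.440, 1.63 and 0.138 CPM in co-culture and 1.52 and 1.63 CPM alone, and the third library was 2-fold or more lower than the alone libraries.

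Neither tested proton-coupled transporter gene was called. Slc36a1, the lysosomal and plasma membrane transporter PAT1, was at 43.5, 29.3 and 40.4 CPM in co-culture and 28.1 and 25.6 CPM alone, with all 3 co-culture libraries above both alone libraries (log2 fold change 0.43 ± 0.25, edgeR adjusted p = 0.456). Slc36a4 was at 20.1, 21.4 and 43.9 CPM in co-culture and 25.6 and 23.6 CPM alone, with M9 and M10 below and the third library above, at a difference of 0.84.

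Both tested Slc43 members had lower values in every co-culture library and did not pass. Slc43a2, the LAT4 transporter of branched-chain amino acids and phenylalanine, was at 127, 106 and 172 CPM in co-culture and 207 and 250.5 CPM alone. Its log2 fold change of -0.98 ± 0.18 gave an edgeR adjusted p of 0.0622, the smallest among the uncalled members, and the third library differed by -0.40. Slc43a2, at chr11:75531694-75577575 on the plus strand, overlaps the antisense gene Gm45606. Slc43a3, whose human counterpart carries purine nucleobases and not amino acids, was at 0.314, 0.984 and 0.173 CPM in co-culture and 2.85 and 2.39 CPM alone (log2 fold change -2.02 ± 0.63, edgeR adjusted p = 0.186, the third library at -3.54).

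The 15 members left out of the test had at most 37 counts in any library. Slc1a7, Slc36a3, Slc7a10, Slc7a12 and Slc7a13 had 0 counts in all 5 libraries, which allows up to 3 counts, or 0.051 to 0.113 CPM, in a library. The 37 counts were those of Slc38a4, a sodium-coupled transporter of hepatocytes, in M12. Slc38a4 had 1 count in M9 and M10 together and 42 counts in M11 and M12 together, a ratio per total count of 52.6 for organoids alone over co-culture (exact 95% interval 8.95 to 2130, counting error only), and 8 counts in the third library. Slc1a3, a glutamate transporter best known from astroglia, had 3 counts in M9 and M10 together and 6 in M11 and M12 together, a ratio per total count of 2.51 for alone over co-culture (exact 95% interval 0.535 to 15.5), and 3 counts in the third library.

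M10 had at least 1.5 times the CPM of M9 for 8 of 27 members (29.6%), where 16.5% of all tested genes were that much higher. M9 was at least 1.5 times M10 for 5 members, where the share of all genes was 14.9%. The 8 members higher in M10 were Slc3a1, Slc38a3, Slc43a3, Slc7a3, Slc1a4, Slc7a5, Slc1a5 and Slc7a7. The 5 higher in M9 were Slc7a11, Slc7a9, Slc1a1, Slc7a8 and Slc36a1. Several of these ratios rest on low counts in M9 and M10. Among those higher in M10 were Slc38a3 (14 and 53), Slc43a3 (10 and 32) and Slc7a3 (20 and 47). Among those higher in M9 were Slc7a9 (54 and 19), Slc1a1 (54 and 18) and Slc7a8 (8 and 4). Of the members with C/EBP-ATF matches, Slc1a4 and Slc7a7 were thus higher in M10 and Slc7a11 was higher in M9. In a list of 26 amino acid response genes, targets of ATF4 and parts of its pathway, M10 was that much higher for 12 (46.2%), with a median ratio of 1.46. M9 was that much higher for 2 of them, Atf3 and Stc2. Asns, the asparagine synthetase and a classic ATF4 target, was at 56.8, 125 and 121 CPM in co-culture and 61.2 and 69.0 CPM alone. Chac1, a glutathione-degrading enzyme, was at 10.7, 57.8 and 14.7 CPM in co-culture and 13.4 and 6.998 CPM alone. Asns was also high in the third library, while Chac1 was high in M10 alone, and both genes were picked after their values were seen. Their part in the values of Slc7a5, Slc1a5 and Slc1a4 was not tested. With M9 left out, the log2 fold changes of Slc1a4, Slc1a5 and Slc7a5 were 1.09, 1.53 and 0.84, and with M10 left out, -0.03, 0.46 and -0.25. That of Slc7a11, which was higher in M9, was -2.29 without M9 and -0.97 without M10.

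**Figure D4:**
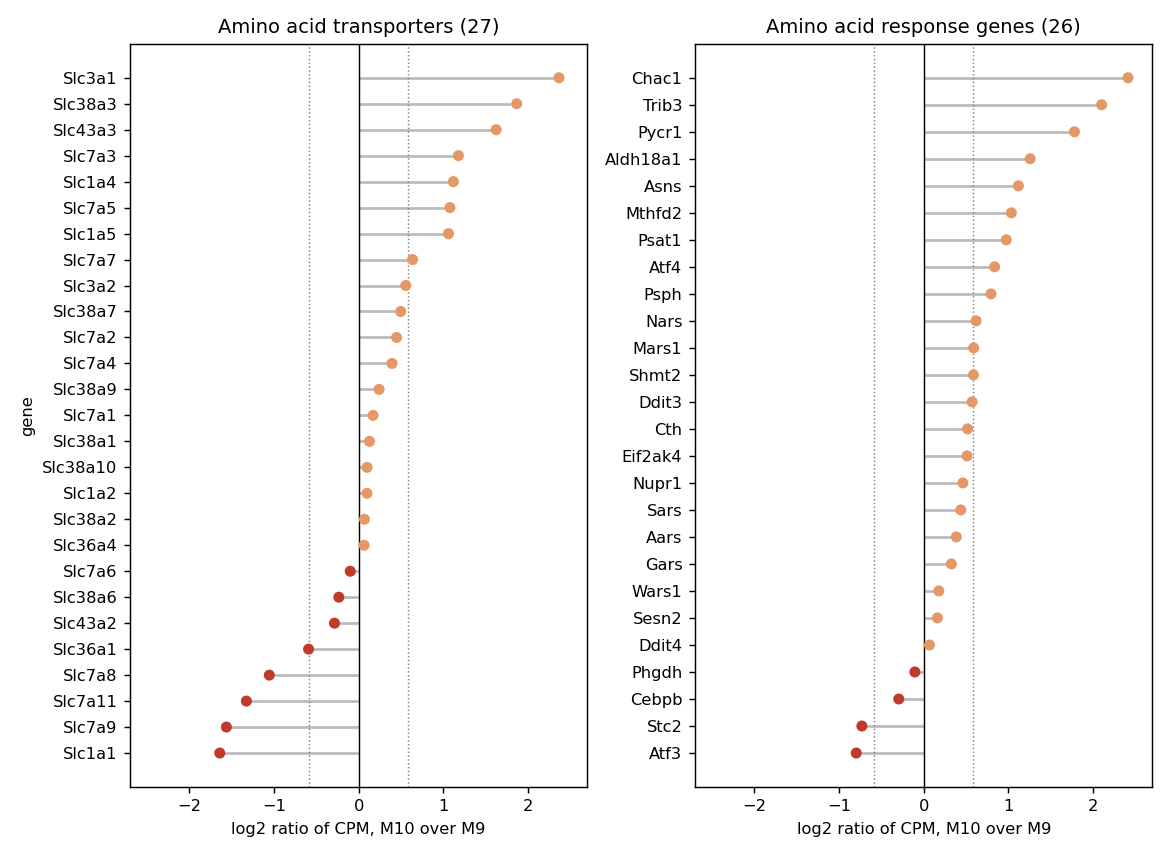
Log2 ratio of CPM in co-culture library M10 over co-culture library M9 for 27 transporter members (left) and 26 amino acid response genes (right), with dotted lines at a ratio of 1.5 either way. M10 was past the line for 8 members and 12 response genes.

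Other genes of amino acid handling were read from 6 lists. None of the 26 amino acid response genes was called, with 21 positive log2 fold changes and a median of 0.18. The 2 with the highest mean CPM were Phgdh, of serine synthesis, at 583.7, 551.2 and 184.6 CPM in co-culture and 552.5 and 533.7 CPM alone, and the stress gene Ddit4, at 429, 457 and 111 CPM in co-culture and 253 and 222 CPM alone. Both had M9 and M10 well apart from the third library. Of 30 genes of mTORC1 amino acid sensing, 1 was called lower and none higher, with a median of -0.08. The called gene was Rragd, a Rag GTPase that holds mTORC1 at the lysosome, at 3.11, 3.20 and 18.4 CPM in co-culture and 23.9 and 39.5 CPM alone. Rragd fell by 3.34 ± 0.33 on the log2 scale (edgeR adjusted p = 0.0168), and the third library was closer to the alone libraries, at -0.74. The Rragd call was lost without M12 and with all 5 libraries fitted. Without M9, edgeR called 11 of 26 response genes higher and 2 of 30 sensing genes lower, where 1294 of 16722 genes were called higher and 1325 lower.

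Of 15 glutathione and cystine genes, 1 was called lower and none higher, with a median of -0.02 and a median of -0.82 in the third library. Nqo1, the NRF2-induced quinone reductase, was at 0.503, 1.57 and 0.484 CPM in co-culture and 10.7 and 15.7 CPM alone. It fell by 3.68 ± 0.60 on the log2 scale (edgeR adjusted p = 0.0459), and the third library differed by -4.59. The Nqo1 call was lost without M11, without M12 and with all 5 libraries fitted, and without M9 there were 4 calls among the 15. Nqo1 and the cystine importer Slc7a11 were both below the alone range in all 3 co-culture libraries, although Slc7a11 was not called. Txnrd1, of the same list, was also below that range in all 3 and not called. For Gclc, Gclm, Gsr, Hmox1 and Srxn1, M9 and M10 overlapped the alone libraries. The third library was below both alone libraries for Gclm, Gsr, Hmox1 and Srxn1, and above both for Gclc. A shared cause was not tested. None of the 19 tested of 30 other amino acid transporters was called, with 13 positive and a median of 0.22. The 2 with the highest mean CPM were Slc6a6 and Sfxn1. Slc6a6, the taurine transporter, was at 853.7, 1624 and 1962 CPM in co-culture and 774.4 and 719 CPM alone (log2 fold change 0.72 ± 0.30, edgeR adjusted p = 0.300, the third library at 1.39). Sfxn1, a mitochondrial serine transporter, was at 97.7, 85.1 and 105.8 CPM in co-culture and 82.9 and 72.6 CPM alone. None of 17 glutamine and glutamate enzymes was called, with 9 positive and a median of 0.08. Glud1, the mitochondrial glutamate dehydrogenase, was at 232.9, 209.4 and 331 CPM in co-culture and 388.4 and 381.7 CPM alone (log2 fold change -0.81 ± 0.15, edgeR adjusted p = 0.0587), below the alone range in all 3. Gfpt1, which uses glutamine to make hexosamine, overlapped between groups at 287.4, 329.7 and 254.1 CPM in co-culture and 305.3 and 257.1 CPM alone. None of the 7 tested of 8 branched-chain amino acid enzymes was called, with 5 positive and a median of 0.04. Bckdha, a subunit of the branched-chain ketoacid dehydrogenase, was at 49.1, 60.0 and 61.7 CPM in co-culture and 49.0 and 56.2 CPM alone, and Dld, a subunit it shares with other dehydrogenases, was at 83.8, 69.2 and 111.9 CPM in co-culture and 88.3 and 76.9 CPM alone. At an unadjusted p under 0.05, the response list held 2 of 26, the sensing list 3 of 30, the glutathione list 2 of 15, the other transporters 3 of 19, the glutamine list 3 of 17 and the branched-chain list 1 of 7, where the share of all tested genes was 17.5%. Without M9, where 2619 of 16722 genes were called, edgeR called 4 of 20 other transporters, 6 of 17 glutamine and glutamate enzymes and 2 of 7 branched-chain enzymes. DESeq2 on all 4 libraries called 2, 1 and 0 in these lists.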

How the data were processed

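Total RNA went into ribosomal-RNA-depleted, stranded libraries, per the labels' protocols. Tools listed in the submitters' processing notes are HISAT2 2.1.0, Bowtie2 2.3.4.1, StringTie 2.1.3b, Trimmomatic 0.38 and FastQC 0.11.7, with builds mm10 and GRCh37 and no roles. Which program counted the reads, with which annotation and whether by strand, is not given in the sources used here. For M9 to M12 the authors deposited estimated counts, listed by Ensembl gene. A separate table deposited for the remaining co-culture sample holds whole-number counts per RefSeq gene, and its column carries another library number than its record, from which the sample was taken. It was joined by 30831 symbols, with 91.77% of its counts. The 10 other per-sample columns of both tables, FPKM and TPM, were not used.

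Estimated counts were rounded and tested in R 4.3.3 with edgeR 4.0.16, using a robust quasi-likelihood fit after filterByExpr and TMM (common dispersion 0.0695), with Benjamini-Hochberg adjustment at 0.05. Each SE is |log2 fold change| / sqrt(F). CPM are TMM-scaled over 5 libraries, and marker sums are per total count. Log2 differences of the third library from the average log2 CPM of the alone libraries used a prior count of 2. Levels per length divide CPM by merged exon length in GENCODE M21, which replaced deposited per-length units in the rule for named genes. Intervals and floors cover counting error only. On simulated counts for 15547 genes, edgeR recovered 14% of genes changed 2-fold, 94% at 4-fold and 100% at 8-fold and 16-fold, with 7 false calls among 161. The changed genes were drawn from well-counted genes only, and every gene had the common dispersion. These rates therefore do not cover low-count members such as Slc7a8 and Slc43a3. Alternatives used DESeq2 1.42.0, limma-voom (limma 3.58.1), other scalings and filters, all 5 libraries, and each library left out. Positions also come from GENCODE M21 (GRCm38) and promoters from RefSeq. Members, lists and tests were chosen with earlier results of these data known. Named members passed the count filter and were called, had an unadjusted p under 0.05, were among the 15 highest by mean level per length or were heavy chains; the 7 other tested members are given mainly by library values. From each list come up to 4 called genes, or the 2 of highest mean CPM. Further list genes are named to show the spread around these.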

Additional observations from a re-analysis of the deposited data

How the results depend on the processing

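Slc7a2 stayed called lower under DESeq2 size factors in edgeR, upper-quartile scaling, library size only, no low-count filter, a mean count of at least 10, DESeq2 and limma-voom, and no direction of a named member turned under these; the median over all genes moved by at most 0.0418 in log2 with scaling. edgeR called 356 genes, with 1404 under no low-count filter, 1314 with DESeq2, 0 to 2619 with one library left out, and 2 with all 5 libraries. For the transporters, 1 called became 7 with no filter, 6 with DESeq2, 0 to 14 with one library left out and 0 with all 5 libraries; the 0 came without M12 (6 members at an unadjusted p under 0.05, 1438 genes) and with all 5 libraries (9 members, 1425 genes). DESeq2 called Slc1a5 and Slc7a7 higher and Slc43a2, Slc7a11, Slc1a2 and Slc7a2 lower. For the other amino acid transporters, no filter and DESeq2 gave 2 each, and leaving out one library gave 0 to 4. For amino acid response genes these were 2, 2 and 0 to 11; for glutamine and glutamate enzymes 1, 1 and 0 to 6; for glutathione and cystine genes 2 with no filter, 0 to 4 with one library left out and 0 with all 5 libraries. The mTORC1 sensing genes gave 2 with DESeq2, 0 to 2 with one library left out and 0 with all 5 libraries, and the branched-chain enzymes 0 to 2 with one library left out. Signs of named members turned only when a library was left out, over ranges of -0.033 to 1.09 for Slc1a4, -0.40 to 1.97 for Slc3a1 and -0.25 to 0.84 for Slc7a5 (negative without M10), -0.29 to 0.021 for Slc38a1 (positive without M11) and -0.29 to 0.014 for Slc7a1 (positive without M12). Among the values of named members, 206 kept direction and call, 27 passed the threshold newly, 2 lost it and 5 turned sign. The cause was not tested. No paired analysis was possible because the columns of the shared table carry library numbers, not the labels' replicate numbers. Depth limits the 15 untested members and Slc7a8, Slc43a3 and Slc38a3, whose counts were low. The planned pseudocount alternative on deposited per-length values was not run, since those columns were not used.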

Other observations

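Slc15a2, a peptide transporter among the other amino acid transporters, was picked after its values were seen because the co-culture libraries disagreed. It was at 0.0315, 6.21 and 0.0864 CPM in M9, M10 and the third co-culture library, against 9.90 and 11.9 CPM in M11 and M12. All 3 co-culture libraries were below both alone libraries, with M10 close to them and M9 and the third library near the floor of 3 counts (log2 fold change -1.82 ± 1.41, edgeR adjusted p = 0.583). Slc38a1 and Slc38a2 lie 44479 bases apart on chromosome 15, and Slc43a1 and Slc43a3 lie 72985 bases apart on chromosome 2. Slc38a2 was above the alone range in all 3 co-culture libraries and its neighbour Slc38a1 was not.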
